A study of Bos taurus with 9 samples.

Results

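The genes examined here are the 10 fatty acid binding and activation genes FABP3, FABP4, FABP5, FABP7, ACSL1, ACSL3, ACSL4, ACSL6, SLC27A1 and SLC27A4, chosen by name out of 21512 rows in the expression table. They were followed in a study that set out to turn bovine fibroblasts into fat cells with small molecules. RNA sequencing was done on 9 samples in 3 groups of 3. BEFs are wild-type bovine ear fibroblasts, grown from the margin of the ear, passaged and sampled on day 0 in medium with serum. The CiADCs-3d and CiADCs-6d groups are the chemically induced adipocytes, the same kind of cells after 3 and 6 days in N2B27 medium with 500 µg/mL VPA (a histone deacetylase inhibitor), 1 µM TTNPB (an agonist of retinoic acid receptors) and 10 µM RepSox (an inhibitor of the TGF-beta type I receptor). There was no untreated group on day 3 or day 6, and so the compounds, the medium and the time in culture cannot be told apart. The sources used here do not say whether the samples of a group came from separate animals or separate inductions, so p-values measure the spread between these samples, which may be technical. In bulk samples, fewer cells of a type and less RNA per cell cannot be told apart.

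Long-chain fatty acids enter a cell with the help of membrane proteins, among them the fatty acid transport proteins of the SLC27A family. Inside, the small fatty acid binding proteins (FABPs) carry them through the cytosol and to nuclear receptors of the PPAR family. Before a fatty acid can be stored as triglyceride, built into phospholipid or oxidised, a long-chain acyl-CoA synthetase (ACSL) must join it to coenzyme A. Fat cells are known for high FABP4, FABP5 and ACSL1. In the annotation of the table all 10 genes belonged to the KEGG PPAR signaling pathway, which had 84 rows, and the 4 ACSL genes also to fatty acid biosynthesis, fatty acid degradation and ferroptosis.

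Library totals ran from 18509244 to 24071580 counts. All 10 genes were among the 14020 that passed the low-count filter, although FABP7 had no count in BEFs and so passed through the induced groups. Among replicates, BEFs were closest to each other (Pearson's r of log2 CPM across genes 0.992 to 0.993). The samples numbered 1 of CiADCs-3d and CiADCs-6d stood apart from the others of their group, and results that rest on them are given with and without them. The 10 fibroblast markers were all detected in BEFs and their summed FPKM was 20061 to 20650, against 8678 to 11148 on day 3 and 5967 to 7999 on day 6. By gene, 2 were called higher, 4 lower and 4 not called on day 3, and 0, 7 and 3 on day 6. COL1A1 fell from 4528 to 1275 and 582 FPKM, whereas COL3A1 was at 1958, 2283 and 1703 FPKM. The 2 higher on day 3 were PDGFRA and PDGFRB (log2 fold change 0.90 and 0.70). The summed FPKM of 10 adipocyte markers, none of which is among the 10 genes, was 8.12 to 11.07 in BEFs, 18.69 to 24.28 on day 3 and 16.09 to 18.55 on day 6, far below that of the fibroblast markers throughout. Of the 9 adipocyte markers tested (all but LEP) 5 were called higher and 1 lower on day 3, and 6 higher and 1 lower on day 6. CD36, among the higher ones on both days, had 2 counts in all in BEFs and passed the filter only through the induced groups. Of all tested genes 30.9% were higher and 29.1% lower on day 3, and 35.6% and 31.9% on day 6. The lower marker was CIDEC (log2 fold change −2.59 and −4.32), at 0.85 FPKM in BEFs. ADIPOQ, the adipokine adiponectin, averaged 0.423, 1.87 and 1.55 FPKM in the 3 groups and was higher on both days (adjusted p = 0.000181 and 0.000485). PLIN1, the coat protein of large lipid droplets, did not pass the test on either day (adjusted p = 0.157 and 0.113).

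The levels of all 10 genes are given as FPKM, the deposited value scaled to gene length and library size, so that genes can be set side by side. The changes are log2 fold changes from the counts, tested with edgeR's quasi-likelihood test over all 9 samples, and a gene is called at a Benjamini-Hochberg adjusted p under 0.05. On day 3 of induction, 5 of the 10 genes were called higher and 4 lower than in BEFs, where 30.9% and 29.1% of all tested genes were, or 60% in either direction. On day 6 it was again 5 higher and 4 lower, beside a background of 35.6% and 31.9%, or 67.5% in either direction. Every called gene lay outside the range of BEFs in all 3 induced samples. The share over all tested genes is not given here, so this adds no support beyond the calls. All 4 ACSL genes and FABP7, which passed the filter only through the groups where it is high, made up the higher side on both days, and FABP3, FABP4, FABP5 and SLC27A1 the lower side. SLC27A4 was called on neither day. Past the study's threshold of an absolute log2 fold change of 1 there were 5 higher and 3 lower genes on day 3 (background 18.2% and 9.94%, or 28.1% in either direction) and 4 higher and 3 lower on day 6 (background 21.9% and 13.4%, or 35.3% in either direction). The median absolute log2 fold change of the 10 genes was 1.79 on day 3 and 1.93 on day 6, against 0.55 and 0.68 for all tested genes, and it was the same with FABP7 at its lower bound. Both comparisons use the same BEFs samples, so their counts are not independent of each other.

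**Figure D1:**
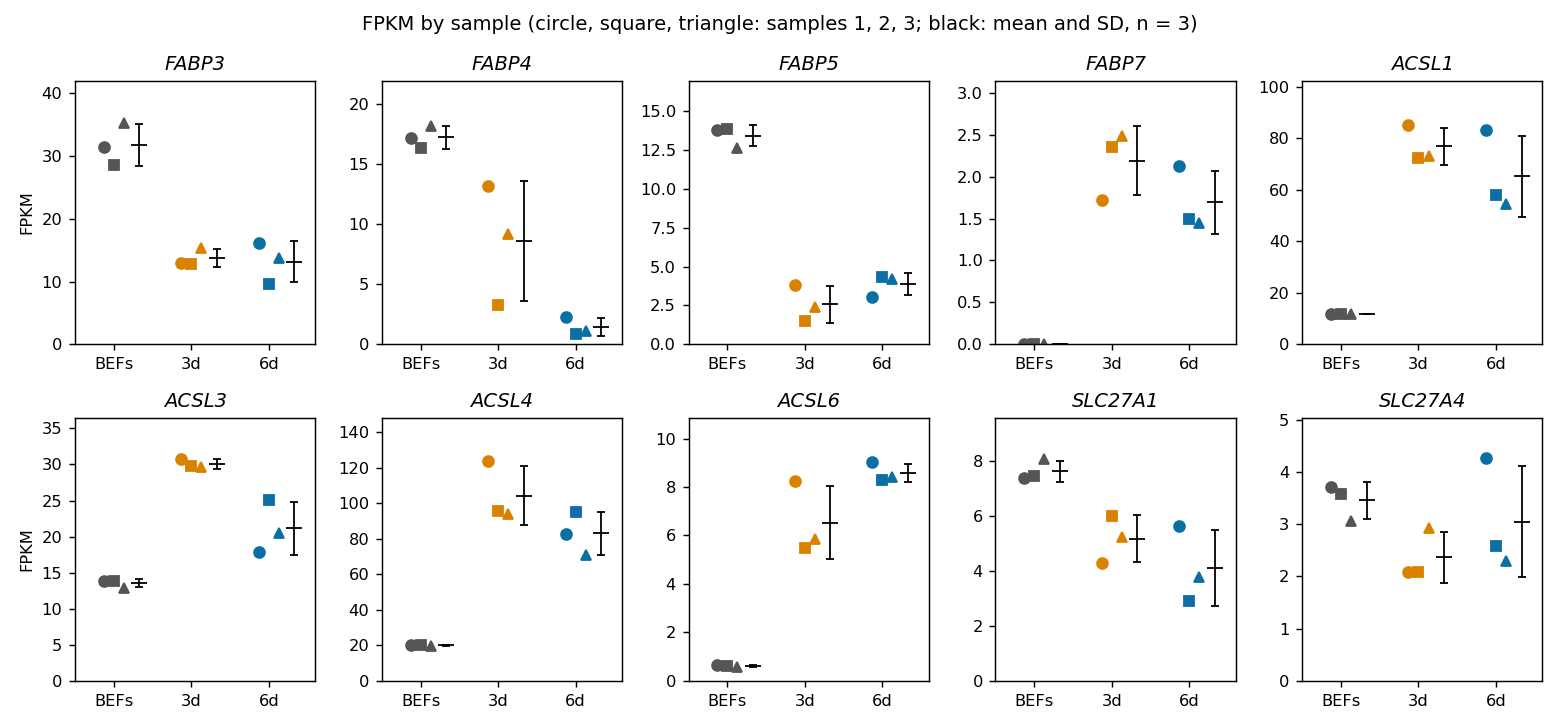
FPKM of each of the 10 genes (y axis, from 0, a scale of its own in every panel) in BEFs, CiADCs-3d and CiADCs-6d (x axis); circles, squares and triangles are the samples numbered 1, 2 and 3, and the black bar is the mean with the SD of 3 samples. FABP4 steps down from 17.2 to 8.58 and 1.40 FPKM, FABP7 is at 0 only in BEFs, and the 4 ACSL genes lie above all BEFs samples on both days.

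FABP3, the heart-type binding protein, is found in muscle, heart and other tissues that burn fatty acids. Its FPKM was 31.43, 28.67 and 35.23 in BEFs, 12.95, 12.87 and 15.39 on day 3, and 16.1, 9.64 and 13.72 on day 6. The groups of induced samples overlapped with each other and lay well below BEFs. FABP3 fell to 0.427 of the BEFs level on day 3 (log2 fold change −1.23, SE 0.18, adjusted p = 0.000106) and to 0.404 on day 6 (−1.31, SE 0.18, adjusted p = 5.03e-05). The 2 days differed by a log2 fold change of −0.08 (SE 0.19, adjusted p = 0.776). Of 6 muscle markers MYOD1 and MYOG had no count in any group, and the summed FPKM of the 6 was 2.07 to 2.77 in BEFs, 0.52 to 1.73 on day 3 and 0.5 to 0.94 on day 6. This sum was carried by DES (2.38, 0.79 and 0.407 FPKM), the 1 marker tested, which was lower on both days (adjusted p = 0.0111 and 0.000719). CKM, not tested, went the other way (0.01, 0.157 and 0.237 FPKM). The part of muscle genes in the FABP3 values was not tested.

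FABP4, also called aP2, is the main cytosolic fatty acid carrier of mature adipocytes and is also made by macrophages and capillary endothelium. Its FPKM was 17.16, 16.35 and 18.2 in BEFs, a coefficient of variation of 5.38%. On day 3 the samples spread over 13.23, 3.31 and 9.2 FPKM, and on day 6 they were at 2.25, 0.83 and 1.12 FPKM. The 3 groups did not overlap, and within CiADCs-3d the sample numbered 2 was far lower than that numbered 1. Behind these values were 234 to 261 counts in BEFs, 43 to 153 on day 3 and 11 to 30 on day 6. Against BEFs its log2 fold change came to −1.04 on day 3 (SE 0.37, adjusted p = 0.0305) and −3.64 on day 6 (SE 0.46, adjusted p = 1.8e-05), the latter a level 12.5-fold lower and among the lowest 1.2% of all tested genes. From day 3 to day 6 it fell by a further 2.61 on the log2 scale (SE 0.46, adjusted p = 0.00223), a 6.1-fold drop that lay in the lowest 0.1% of tested genes. The day 3 call did not hold when single samples were left out: the adjusted p was 0.0658, 0.0562 and 0.0767 without BEFs sample 1, 2 or 3, 0.0628 without CiADCs-3d sample 2 (log2 fold change −0.66) and 0.0588 without CiADCs-3d sample 3, and over all alternatives it ran from 0.000408 to 0.0767. Its calls on day 6 and between the days held in every alternative.

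Markers of the other cell types that make FABP4 were also followed. Of 6 macrophage markers 3 were tested, and all 3 were higher on both days (background 30.9% on day 3 and 35.6% on day 6). Summed over the 6, their FPKM was 0.83 to 1.13 in BEFs, 26.46 to 28.21 on day 3 and 39.7 to 49.92 on day 6. The sum was carried by CD14 (0.44, 23.9 and 38.2 FPKM), while the pan-leukocyte gene PTPRC had no count in any group. CSF1R, 1 of the 3, was near the floor (0.03, 0.12 and 0.287 FPKM). Its day 3 samples overlapped BEFs (adjusted p = 0.0327), and it passed the filter only through the induced groups. Of 6 endothelial markers 3 were tested. On day 3, 2 were higher and 0 lower (background 30.9% and 29.1%), and on day 6, 1 was higher and 1 lower (35.6% and 31.9%). The summed FPKM of the 6 endothelial markers was 2.29 to 3.38, 36.65 to 52.35 and 23.55 to 37.5. It was carried by VWF (0.86, 41.2 and 27.8 FPKM), with CLDN5 at 0 counts in BEFs and on day 3. The part of these genes in the FABP4 values was not tested.

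FABP5, the epidermal type, is the second FABP of fat cells and hands ligands to the nuclear receptor PPARD. It stood at 13.81, 13.84 and 12.65 FPKM in BEFs, at 3.83, 1.48 and 2.39 FPKM on day 3 and at 3.06, 4.34 and 4.18 FPKM on day 6. Every induced sample lay far below BEFs, and the 2 days overlapped. The level was 5.35-fold lower on day 3 (log2 fold change −2.42, SE 0.26, adjusted p = 5.87e-06) and 3.57-fold lower on day 6 (−1.84, SE 0.25, adjusted p = 3.57e-05). Of the FABPs it thus had the lowest log2 fold change on day 3, and FABP4 on day 6. The difference between the days, 0.58 (SE 0.26), did not pass the test with all samples (adjusted p = 0.116). Without CiADCs-3d sample 1, the highest of that day, it was 0.92 (adjusted p = 0.00871), and without both induced samples numbered 1 it was 1.05 (adjusted p = 0.000478). The summed FPKM of 6 keratinocyte markers, which mark the epidermal cells known for FABP5, was 25.51 to 35.95 in BEFs, 37.27 to 47.83 on day 3 and 39.91 to 44.53 on day 6, with KRT1 and EPCAM at 0 counts in BEFs. Of the 4 tested, 2 were higher and 2 lower on day 3, and 1 was higher and 0 lower on day 6. The background was 30.9% higher and 29.1% lower on day 3, and 35.6% and 31.9% on day 6. KRT1, 1 of the 2 higher on day 3, averaged 0.443 FPKM there and passed the filter only through induced samples. The sum was carried on the higher side by CDH1 (10.5, 32.2 and 21.8 FPKM), while KRT5 was at 17.0, 8.34 and 17.9 FPKM (adjusted p = 0.00341 on day 3 and 0.887 on day 6) and KRT14 at 1.81, 0.937 and 1.61 FPKM (adjusted p = 0.0488 and 0.629). Their part in the FABP5 values was not tested.

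FABP7, the brain type of radial glia and other glial cells, was the FABP that appeared during induction. It had no count in the 3 BEFs samples, 26, 40 and 48 counts on day 3 and 37, 26 and 22 counts on day 6. The corresponding FPKM was 0 in BEFs, 1.72, 2.36 and 2.49 on day 3 and 2.13, 1.5 and 1.45 on day 6. With BEFs put at 3 counts in each library, the floor that a count of 0 allows, FABP7 was at least 13.4-fold higher on day 3 and at least 10.2-fold higher on day 6. The adjusted p of the fit, 6.31e-06 and 9.36e-06, compares with a group at 0 and does not belong to these bounds. Floors of this kind cover counting error only. The days did not differ by the test (log2 fold change −0.39, SE 0.33, adjusted p = 0.399). Of 6 Schwann and glial markers, SOX10, a transcription factor of that lineage, had no count in BEFs or on day 3 and 8, 4 and 1 counts on day 6. The summed FPKM of these markers was 31.26 to 34.08, 38.53 to 40.83 and 27.75 to 38.32 in the 3 groups, nearly all of it S100B. Of the 2 tested, S100B was called on neither day (adjusted p = 0.0921 and 0.629), and ERBB3, at 0.0667, 0.0900 and 0.253 FPKM, was higher on day 6 (log2 fold change 1.91, adjusted p = 0.00843). NGFR was not tested, and its 5 to 19 counts in the induced samples were above the 1 to 3 of BEFs. The part of these genes in the FABP7 values was not tested.

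The rest of the FABP family, FABP1, FABP2, FABP6, FABP9, FABP12 and PMP2, was at or near 0. FABP2 had 2 counts in CiADCs-6d sample 1, and the others had no count in any of the 9 samples, which allows up to 3 counts per library. In the RefSeq annotation of the bovine assembly ARS-UCD2.0, FABP5, PMP2, FABP9, FABP4 and FABP12 are 5 coding genes in a row. Of that stretch, its outer member FABP5 and FABP4 were expressed and both fell, while the 3 others had no count.

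**Figure D2:**
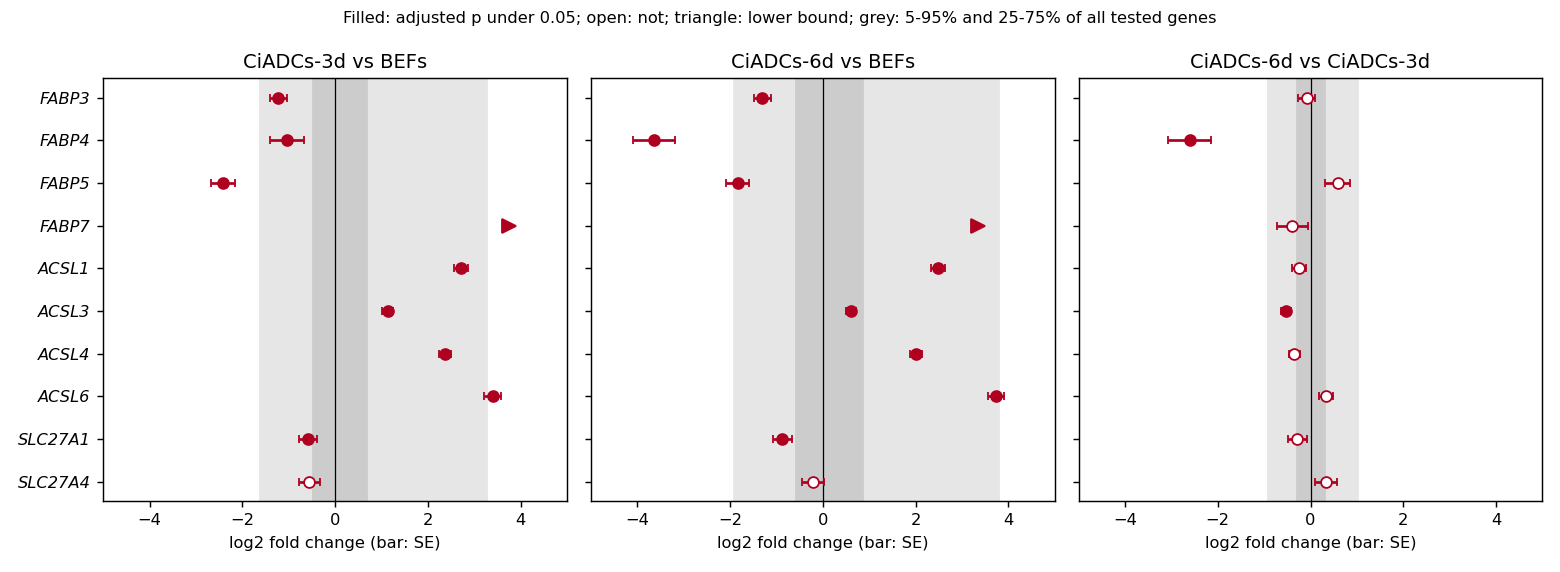
Log2 fold change of each gene (x axis) with its SE for CiADCs-3d against BEFs, CiADCs-6d against BEFs and CiADCs-6d against CiADCs-3d; filled points were called at an adjusted p under 0.05, open points were not, triangles are the lower bounds of FABP7, and grey bands hold the middle 50% and 90% of all tested genes. The ACSL genes and FABP7 lie to the right and FABP3, FABP4, FABP5 and SLC27A1 to the left in both comparisons with BEFs, and between the days FABP4 stands far out at −2.61.

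The ACSL genes rose together. ACSL1, the main synthetase of adipose tissue and liver, was at 11.54, 11.6 and 11.6 FPKM in BEFs, at 85.13, 72.22 and 72.95 FPKM on day 3 and at 83.1, 57.86 and 54.5 FPKM on day 6. The lowest induced sample was above 54 FPKM, far from any BEFs sample, and the days overlapped. ACSL1 was 6.6-fold higher on day 3 (log2 fold change 2.72, SE 0.15, adjusted p = 2.03e-08) and 5.56-fold higher on day 6 (2.48, SE 0.15, adjusted p = 3.4e-08). From day 3 to day 6 the log2 fold change was −0.25 (SE 0.14, adjusted p = 0.21). It was −0.50 without CiADCs-6d sample 1 (adjusted p = 0.00213) and −0.43 without both samples numbered 1 (adjusted p = 0.00052).

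ACSL4, which prefers arachidonic acid and other polyunsaturated fatty acids and supplies the lipids that are peroxidised in ferroptosis, had the highest level of the 10 genes in the induced cells. Its FPKM was 20.27, 20.27 and 19.51 in BEFs, 123.72, 95.63 and 93.83 on day 3 and 82.9, 95.21 and 71.16 on day 6. The level of 104 ± 16.8 FPKM on day 3 (mean ± SD, n = 3) was higher than that of 95.6% of tested genes, compared with 75.8% for the 20.02 ± 0.439 FPKM of BEFs. It was 5.14-fold higher on day 3 (log2 fold change 2.36, SE 0.13, adjusted p = 1.68e-08) and 4.04-fold higher on day 6 (2.02, SE 0.13, adjusted p = 4.72e-08). The 2 days overlapped in FPKM, while in CPM all day 6 samples lay below all day 3 samples. The log2 fold change between the days, −0.35, missed the threshold (SE 0.12, adjusted p = 0.0535). It passed in DESeq2 (adjusted p = 0.0198), with upper-quartile scaling (0.0274), with no filter (0.0449) and without CiADCs-6d sample 1 (0.0386) or 2 (0.0265), and over all alternatives the adjusted p reached 0.141.

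ACSL3 resides in the endoplasmic reticulum and on nascent lipid droplets. Its samples were at 13.78, 13.91 and 12.91 FPKM in BEFs, 30.82, 29.77 and 29.64 FPKM on day 3, and 17.85, 25.14 and 20.47 FPKM on day 6. The 3 groups did not overlap, with the highest level on day 3. ACSL3 was 2.19-fold higher than in BEFs on day 3 (log2 fold change 1.13, SE 0.12, adjusted p = 3.88e-06) and 1.52-fold higher on day 6 (0.61, SE 0.11, adjusted p = 0.000497). The decline between the days passed the test (−0.53, SE 0.11, adjusted p = 0.00609). The rise of ACSL3 was the smallest of the 4 ACSL genes on both days.

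ACSL6, a synthetase of brain and other tissues that handles docosahexaenoic acid, began as the least expressed of the 10 genes apart from FABP7. It was at 0.64, 0.62 and 0.58 FPKM in BEFs, 8.25, 5.48 and 5.86 FPKM on day 3 and 9.02, 8.29 and 8.42 FPKM on day 6, from 40 to 46 counts in BEFs and 349 to 588 afterwards. Every induced sample was above 5 FPKM and every BEFs sample below 1. ACSL6 was 10.5-fold higher on day 3 (log2 fold change 3.40, SE 0.18, adjusted p = 1.08e-08) and 13.3-fold higher on day 6 (3.73, SE 0.18, adjusted p = 3.96e-09), and day 6 against day 3 was not called (0.34, SE 0.15, adjusted p = 0.105). The days did not overlap in FPKM but did in CPM. Without CiADCs-3d sample 1 the difference between the days was 0.47 (adjusted p = 0.0164), and without both samples numbered 1 it was 0.42 (adjusted p = 0.0128). On the log2 scale its rise was above 94.9% of all tested genes on day 6.

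Of the transporters, SLC27A1 (FATP1) is the insulin-responsive form of muscle and fat. Its FPKM was 7.37, 7.44 and 8.06 in BEFs, 4.3, 5.99 and 5.24 on day 3 and 5.63, 2.92 and 3.79 on day 6. All induced samples lay below BEFs, and the days overlapped. Its log2 fold change was −0.59 on day 3 (SE 0.20, adjusted p = 0.0229) and −0.88 on day 6 (SE 0.20, adjusted p = 0.00204), that is 1.5-fold and 1.83-fold lower. The day 3 call did not hold without BEFs sample 3 (adjusted p = 0.0716), CiADCs-3d sample 1 (0.0966) or CiADCs-3d sample 3 (0.0573), nor in limma on unfiltered log2(FPKM + 1) (0.0611). Over all alternatives this adjusted p ran from 0.00473 to 0.0966. Between the days the log2 fold change was −0.29 (adjusted p = 0.305). It was −0.61 without CiADCs-6d sample 1 (adjusted p = 0.0155) and −0.74 without both samples numbered 1 (adjusted p = 0.000608).

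SLC27A4 (FATP4), which is needed for the lipid barrier of the skin, was at 3.72, 3.58 and 3.06 FPKM in BEFs. On day 3 it was at 2.08, 2.09 and 2.93 FPKM, all below BEFs, and on day 6 at 4.26, 2.58 and 2.3 FPKM, where the sample numbered 1 was above all BEFs samples. The log2 fold change was −0.55 on day 3 (SE 0.23, adjusted p = 0.058) and −0.21 on day 6 (SE 0.23, adjusted p = 0.43). The call depended on single samples. On day 3 the adjusted p was 0.0299 without CiADCs-3d sample 3, 0.0163 without CiADCs-6d sample 1, which is in the fit for the spread, 0.0279 with only BEFs and CiADCs-3d fitted and 0.0379 without both samples numbered 1. On day 6 the log2 fold change without CiADCs-6d sample 1 was −0.56 (adjusted p = 0.022), and without both samples numbered 1 it was also −0.56 (adjusted p = 0.00968).

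Between day 3 and day 6 of induction, 2 of the 10 genes were called, FABP4 and ACSL3, both lower, where 13.6% of tested genes were called lower and 14.4% higher, 28% in all. None was called higher by edgeR. At an unadjusted p under 0.05 there were 2 higher and 3 lower genes, for which no background is given here. DESeq2 called 0 higher and 3 lower (background 15.2% and 15.9%), and limma on log2(FPKM + 1) 0 higher and 2 lower (16.6% and 14%). FABP4 was the gene past an absolute log2 fold change of 1 (background 3.22% lower and 4.09% higher, 7.31% in all). The median absolute log2 fold change of the 10 genes was 0.34, against 0.30 over all tested genes. Without both induced samples numbered 1, FABP5 and ACSL6 were called higher and FABP4, ACSL3, ACSL1 and SLC27A1 lower, with a background of 22.8% higher and 26% lower. Without CiADCs-3d sample 1 alone 2 genes were called higher (FABP5 and ACSL6), with a background of 15.3% higher and 17.6% lower. Without CiADCs-6d sample 1 alone 5 were called lower (FABP4, ACSL1, ACSL3, ACSL4 and SLC27A1), with a background of 17.1% higher and 20.7% lower.

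Summed by family, the FABP level was lower and the ACSL level higher in every induced sample than in any BEFs sample. The 4 FABP genes together held 62.4 ± 3.61 FPKM in BEFs, 27.1 ± 6.21 on day 3 and 20.1 ± 3.63 on day 6 (mean ± SD, n = 3), that is 0.434 and 0.322 of the BEFs level. The 4 ACSL genes together held 45.7 ± 0.994, 218 ± 26.1 and 178 ± 20.5 FPKM, 4.76 and 3.89 times the BEFs level. This sum leaves out ACSL5, which was at 35.2, 59.8 and 50.4 FPKM and rose less, 1.68-fold on day 3 and 1.41-fold on day 6. The 2 SLC27A genes summed to 11.1 ± 0.0513, 7.54 ± 1.01 and 7.16 ± 2.38 FPKM. None of these 3 sums overlapped between BEFs and either induced group. The two-sided exact permutation p was 0.1 in each case, the smallest that 3 against 3 samples allow.

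**Figure D3:**
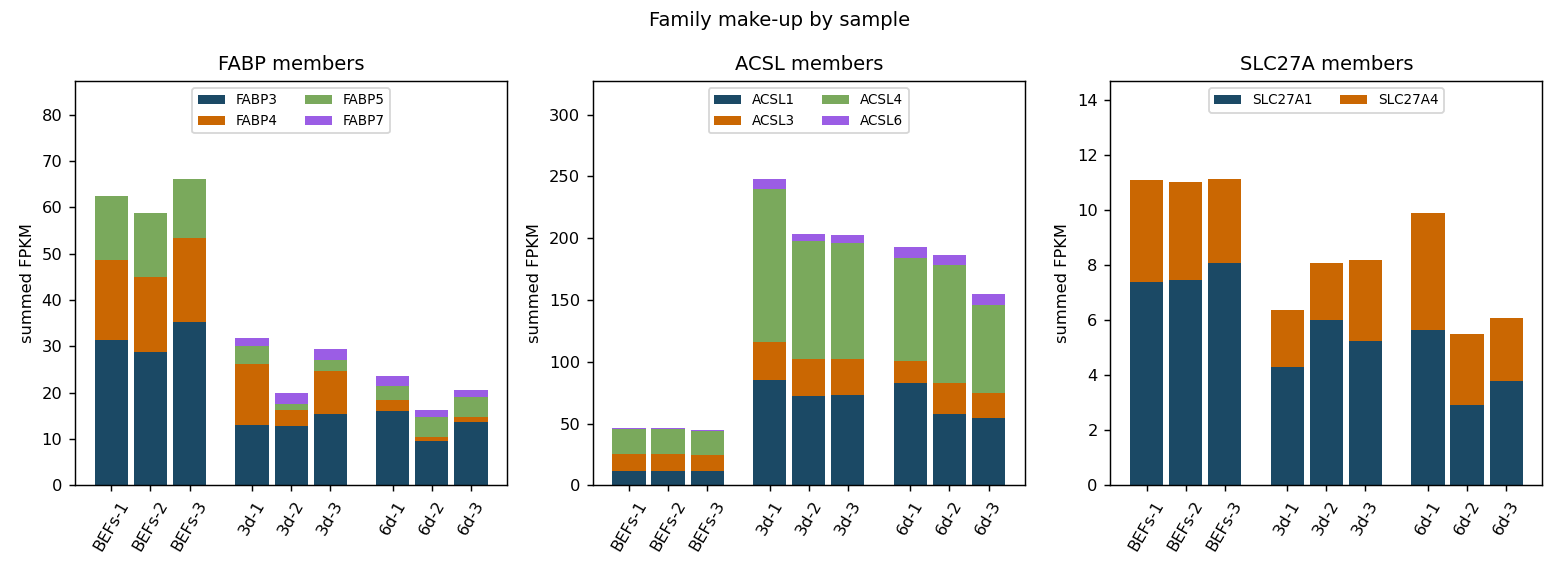
Summed FPKM (y axis, from 0) of the FABP, ACSL and SLC27A genes in each of the 9 samples (x axis), stacked by gene. The FABP bars shrink from 58.86 or more in BEFs to 31.73 or less with FABP4 nearly gone on day 6, and the ACSL bars grow from 46.4 or less to 154.55 or more with ACSL4 as the largest part in each sample but CiADCs-6d sample 1, where ACSL1 is level with it.

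The make-up of each family differed between the groups as well. FABP3 was the leading FABP on average in every group, with 50.8 ± 2.33% of the summed FPKM in BEFs, 52.4 ± 11.7% on day 3 and 64.8 ± 5.01% on day 6 (mean ± SD, n = 3). FABP4 held 27.6 ± 0.150% in BEFs and 29.8 ± 12.6% on day 3, then 6.71 ± 2.48% on day 6. FABP5 held 21.6 ± 2.23%, 9.19 ± 2.52% and 20.01 ± 6.81%, so its share was lowest on day 3. In BEFs the order of levels was FABP3, FABP4, FABP5 with no overlap between neighbours. On day 3 the ranges of FABP3 and FABP4, of FABP4 and FABP5, and of FABP5 and FABP7 overlapped. On day 6 FABP3 came first and FABP5 next without overlap, and FABP7 and FABP4 overlapped below them. The log2 ratio of FABP5 to FABP4 in FPKM averaged −0.36 in BEFs, −1.63 on day 3 and 1.58 on day 6, with no overlap between any pair of groups (exact permutation p = 0.1 each, adjusted p = 0.14 over the 21 comparisons of 7 ratios, most of them chosen after the values were seen).

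Of the 4 ACSL genes ACSL4 had the largest mean share in every group, with 43.8 ± 0.0815%, 47.8 ± 1.86% and 46.7 ± 4.07% of the summed FPKM. In CiADCs-6d sample 1 its share was 42.982%, against 43.086% for ACSL1. ACSL1 held 25.3 ± 0.594%, 35.3 ± 0.887% and 36.5 ± 6.12%, and ACSL3 29.6 ± 0.553%, 13.9 ± 1.28% and 11.99 ± 2.37%. The pair changed places: in every BEFs sample ACSL3 had the higher FPKM, and in every induced sample ACSL1 did. The log2 ratio of ACSL1 to ACSL3 averaged −0.22, 1.35 and 1.61 (exact permutation p = 0.1 for either day against BEFs, adjusted p = 0.14). ACSL6 remained a small part, with 1.34 ± 0.0422%, 2.97 ± 0.322% and 4.86 ± 0.525%. In BEFs and on day 3 no neighbours in the order of ACSL levels overlapped, whereas on day 6 the ranges of ACSL4 and ACSL1 did. The family has a further member outside the 10 genes, ACSL5, named after its values were seen. It was at 35.2, 59.8 and 50.4 FPKM on average, which made it the most expressed ACSL gene in BEFs, and it was higher by a log2 fold change of 0.75 on day 3 (adjusted p = 0.000297) and 0.49 on day 6 (adjusted p = 0.00429).

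SLC27A1 held 68.8 ± 3.22% of the summed SLC27A FPKM in BEFs, 68.6 ± 5.10% on day 3 and 57.4 ± 4.59% on day 6. Its FPKM was above that of SLC27A4 in all 9 samples.

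FABP5 shares a ligand, retinoic acid, with the cellular retinoic acid binding protein CRABP2, which carries it to retinoic acid receptors rather than to PPARD. CRABP2 was at 19.61, 18.65 and 27.06 FPKM in BEFs, 48.5, 72.85 and 73.83 FPKM on day 3 and 20.7, 19.61 and 24.08 FPKM on day 6. It thus stood apart on day 3, while BEFs and day 6 overlapped. Its log2 fold change was 1.56 on day 3 (adjusted p = 2.96e-05), −0.06 on day 6 (adjusted p = 0.816) and −1.62 between the days (adjusted p = 0.000321). The log2 ratio of CRABP2 to FABP5 in FPKM averaged 0.68 in BEFs, 4.74 on day 3 and 2.49 on day 6, and no groups overlapped (exact permutation p = 0.1 each, adjusted p = 0.14). In single samples that ratio was 1.35 to 2.14 in BEFs, 12.7 to 49.2 on day 3 and 4.52 to 6.76 on day 6. CRABP1, which carries retinoic acid to its breakdown, rose from 11.1 ± 3.03 FPKM to 1925 ± 162 and 1767 ± 285 FPKM (log2 fold change 7.41 and 7.27, adjusted p = 1.71e-10 and 1.77e-10). PPARD itself was at 9.52, 7.91 and 10.6 FPKM, with log2 fold changes of −0.28 (adjusted p = 0.0669) and 0.12 (adjusted p = 0.407), and was higher on day 6 than on day 3 by 0.40 (adjusted p = 0.0311).

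A wider list of 42 genes of fatty acid uptake, binding, activation and hydrolysis, the other FABPs included, set the 10 genes in context. Of the 26 that passed the filter, 15 were higher, 6 lower and 5 not called on day 3, and 14, 6 and 6 on day 6. The background was 30.9% higher and 29.1% lower on day 3, and 35.6% and 31.9% on day 6. CD36 and SLC27A5, both on the higher side, passed the filter only through the induced groups. The median log2 fold change of these 26 was 0.46 and 0.48, against 0.006 and 0.03 for all tested genes. Between the days 2 were higher, 7 lower and 17 not called, beside a background of 14.4% higher and 13.6% lower.

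Most of the other acyl-CoA synthetases that were tested, a mixed list by substrate, were higher in the induced cells. Of 13 other acyl-CoA synthetases 7 were tested, and on both days 6 were higher and 1 lower. Over all tested genes, 30.9% were higher and 29.1% lower on day 3, and 35.6% and 31.9% on day 6. ACSF2, a mitochondrial medium-chain synthetase, rose from 28.1 ± 1.63 FPKM to 101 ± 8.36 and 124 ± 11.6 FPKM (log2 fold change 1.83 and 2.1, adjusted p = 4.28e-08 and 1.13e-08). ACSS1, the mitochondrial acetyl-CoA synthetase, rose by 3.02 and 2.61 on the log2 scale (adjusted p = 1.45e-06 and 4.22e-06), from a level of 0.247 FPKM. ACSS3, which activates propionate, rose by 1.78 on day 3 (adjusted p = 9.92e-07) and 0.77 on day 6 (adjusted p = 0.000799), and its decline between the days passed the test (−1.02, adjusted p = 0.000862). The lower gene, named after its values were seen, was AACS, which activates acetoacetate in the cytosol, with log2 fold changes of −0.62 and −0.85 (adjusted p = 0.000362 and 2.32e-05).

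**Figure D4:**
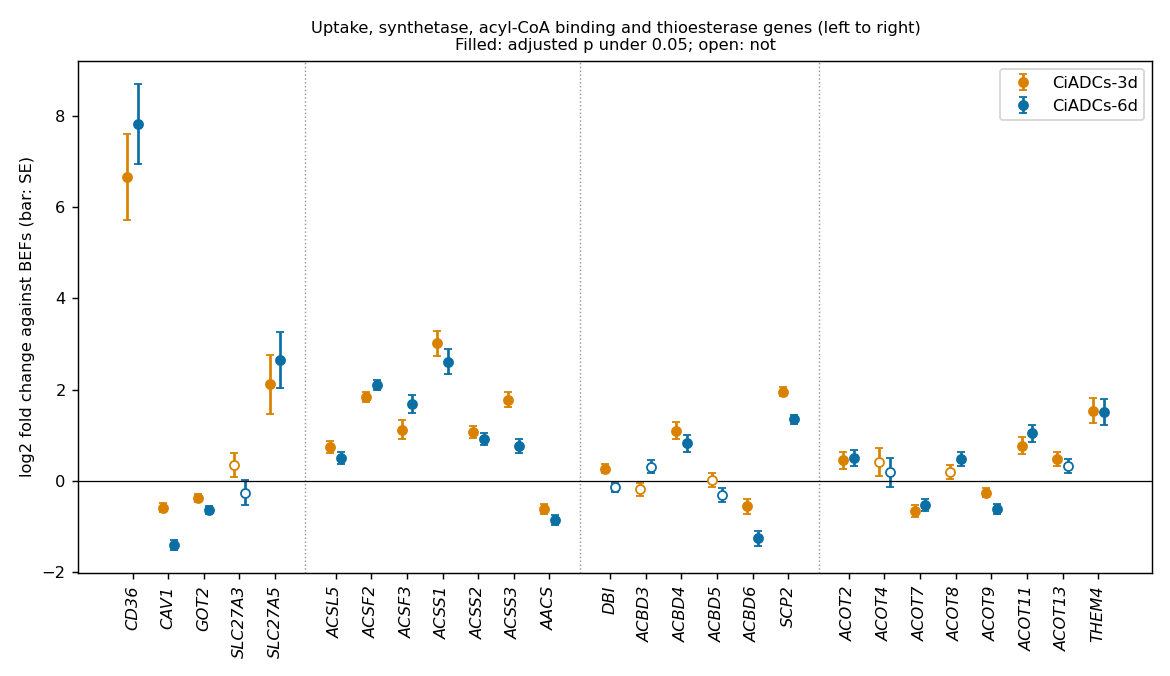
Log2 fold change against BEFs (y axis) with its SE on day 3 (orange) and day 6 (blue) for the tested genes of fatty acid uptake, acyl-CoA synthesis, acyl-CoA binding and acyl-CoA hydrolysis outside the 10 genes (x axis, the 4 groups split by dotted lines); filled points were called at an adjusted p under 0.05. CD36 lies highest, 6 of the 7 synthetases lie above 0 on both days, and CAV1 and ACBD6 are lower on day 6 than on day 3.

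Among 7 other uptake genes 5 were tested, and on both days 2 were higher, 2 lower and 1 not called. The background was 30.9% higher and 29.1% lower on day 3, and 35.6% and 31.9% on day 6. CD36, the fatty acid translocase, had 0, 2 and 0 counts in BEFs, 125, 50 and 40 on day 3 and 102, 258 and 136 on day 6. It is, like FABP4, a gene of mature adipocytes, and the induced samples lay above BEFs in CD36 and below BEFs in FABP4. From counts summed by group and scaled to library size, its ratio to BEFs was 116 on day 3 (95% counting interval 31.8 to 965). On day 6 it was 272 (74.8 to 2250). These intervals cover counting error only, not the spread between samples. The edgeR fit gave log2 fold changes of 6.66 and 7.82 (adjusted p = 6.56e-05 and 6.99e-06). CD36 passed the filter through the induced groups, and its level reached only 1.25 ± 0.911 and 2.76 ± 1.27 FPKM. The other higher gene, SLC27A5, was named after its values were seen and stayed under 0.56 FPKM on average in each group. Like CD36 it passed the filter only through the induced groups. CAV1, the structural protein of caveolae, was at 305, 205 and 118 FPKM and fell by 0.59 and then 1.41 on the log2 scale (adjusted p = 0.000261 and 1.4e-07). GOT2, a mitochondrial aminotransferase also found at the plasma membrane as a fatty acid binding protein, fell by 0.38 and 0.64 (adjusted p = 0.00227 and 3.18e-05).

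Acyl-CoA, the product of the ACSL enzymes, is bound by a further set of proteins. Of 7 such genes 6 were tested, with 3 higher, 1 lower and 2 not called on day 3 and 2, 1 and 3 on day 6. For these and the thioesterases below, the background was 30.9% higher and 29.1% lower on day 3, and 35.6% and 31.9% on day 6. SCP2, sterol carrier protein 2, rose from 20.9 ± 1.20 FPKM to 86.5 ± 2.75 and 57.6 ± 5.66 FPKM (log2 fold change 1.95 and 1.35, adjusted p = 7.77e-09 and 1.37e-07). ACBD4 rose by 1.10 and 0.82 on the log2 scale (adjusted p = 0.000184 and 0.00138), and ACBD6 fell by 0.56 and 1.26 (adjusted p = 0.0102 and 3.01e-05). The thioesterases, which split acyl-CoA again, had 8 of 9 genes tested, with 4 higher, 2 lower and 2 not called on either day. THEM4 was higher by a log2 fold change of 1.54 and 1.51 (adjusted p = 0.000476 and 0.000429) and ACOT11 by 0.77 and 1.04 (adjusted p = 0.00347 and 0.00031), whereas ACOT7, which prefers arachidonoyl-CoA, was lower by −0.66 and −0.53 (adjusted p = 0.000734 and 0.00267). In the KEGG PPAR signaling pathway without the 10 genes, 48 of 74 rows were tested. On day 3, 27 were higher and 4 lower (background 30.9% and 29.1%), and on day 6, 28 and 10 (35.6% and 31.9%).

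PPARG, the nuclear receptor of which FABP4 is a textbook target, was at 2.17 ± 0.280, 7.09 ± 1.91 and 3.46 ± 0.699 FPKM. It was higher than in BEFs by a log2 fold change of 1.68 on day 3 (adjusted p = 4.03e-05) and 0.64 on day 6 (adjusted p = 0.0264), and FABP4 was lower on both days.

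For each of the 10 genes the gene whose log2 CPM had the highest Pearson's r with it over the 9 samples was recorded as a description. The 9 points fall into 3 groups that share their libraries, so r is not independent of the grouping. For FABP4 this was UBP1, a transcription factor, with r = 0.987. For FABP3 it was GTF3A (0.992), for FABP5 CDC42EP3 (0.995) and for FABP7 APOL3 (0.999). ACSL1 was matched by CASP13 (0.996), ACSL3 by Nfib (0.993), ACSL4 by CREG1 (0.998) and ACSL6 by NLRP3 (0.999), the sensor of an inflammasome. The nearest genes of SLC27A1 and SLC27A4 were TIGD5 (0.995) and GADD45GIP1 (0.936). SLC27A4 thus had the lowest such r of the 10 genes.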

How the data were processed

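Gene expression in 3 BEFs, 3 CiADCs-3d and 3 CiADCs-6d samples was measured by RNA sequencing. The table deposited by the authors holds 2 values per gene and sample, an expected count (an estimated read count without normalization) and an FPKM value scaled to gene length and library size. According to the submitters' processing notes the tools were RSEM, HISAT2 2.2.4, fastp 0.18.0 and StringTie 1.3.1, while TopHat and HTSeq are given in the methods of the paper. The genome build is not given in the sources used here, so no coordinates or sequences are given. The labels name rRNA removal and the paper's methods oligo(dT) selection. No strand setting is stated.

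Counts were rounded, although those of the 10 genes were whole already. Of 21512 rows, 21039 carried an NCBI Gene ID. The filterByExpr function of edgeR 4.0.16 (minimum count 10, minimum total 15) kept 14020 genes and removed 7492. After TMM scaling, a quasi-likelihood fit to all 9 samples without a replicate block was tested with Benjamini-Hochberg adjustment over all 14020 genes. CPM used the TMM-scaled library size. Alternatives used DESeq2 1.42.0 and limma 3.58.1 in R 4.3.3, other scalings, filters and thresholds, a replicate block and samples left out. Figures were drawn with matplotlib 3.10.9 in Python 3.11.15. The fits were tested on simulated data with planted changes. Single values were compared with two-sided exact permutation tests.

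The 10 genes and all gene lists were chosen with earlier results of these data known. Lists were matched by Gene ID, and all 105 entries were found. Besides the 10 genes, the text names up to 3 genes per list with the largest absolute log2 fold change against BEFs among those called and at 1 FPKM or more in a group, together with CD36, CRABP2 and PPARD, and the nearest gene by Pearson's r. PPARG, ACSL5, SLC27A3, SLC27A5, AACS and the cell type markers named singly were added after their values were seen. The lists covered fatty acid uptake, other FABPs, acyl-CoA synthetases, acyl-CoA binding proteins, thioesterases, partners of FABP5, and markers of fibroblasts, adipocytes, endothelium, macrophages, keratinocytes, muscle and Schwann or glial cells.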

Additional observations from a re-analysis of the deposited data

Results flagged for a closer look

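For 2 genes the effect of induction against the same fibroblasts differed between the days, by the edgeR test of CiADCs-6d against CiADCs-3d. FABP4 was lower on day 6 than on day 3 by a log2 fold change of −2.61 (adjusted p = 0.00223). ACSL3 differed by −0.53 (adjusted p = 0.00609), from a rise of 1.13 on day 3 to one of 0.61 on day 6. All 3 samples of day 6 lay below all 3 of day 3 in both genes, and over the alternatives the log2 fold change ran from −3.18 to −1.88 for FABP4 and from −0.68 to −0.46 for ACSL3.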

How the results depend on the processing

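Over 22 alternatives, 619 single log2 fold changes kept their direction and their side of the threshold, 15 lost the call, 19 gained it and 4 reversed. The reversed values, none of them called, were those of CiADCs-6d over CiADCs-3d for FABP3, 0.01 without CiADCs-3d sample 3 and 0.09 without CiADCs-6d sample 2, and for SLC27A4, −0.13 without both induced samples numbered 1 and −0.03 without CiADCs-6d sample 1. With single samples left out these values ran from −0.30 to 0.09 for FABP3 and from −0.03 to 0.52 for SLC27A4. The causes were not tested. With a fold threshold added, 1 gene was lower on day 6 than on day 3 (background 3.22%). At an adjusted p under 0.01, 2 were lower on day 3 than in BEFs (background 22.5%). Both settings are by construction stricter. Without both induced samples numbered 1, 2 genes were higher and 4 lower on day 6 than on day 3 (background 22.8% and 26%). Leaving out each sample in turn, the number lower than in BEFs was 2 to 5 on day 3 and 4 to 5 on day 6, the number higher was 5 on either day, and between the days 0 to 2 were higher and 2 to 5 lower. The matching background was 24.8% to 30.2% lower and 27% to 33% higher on day 3. On day 6 it was 28.5% to 33.2% lower and 32.2% to 36.2% higher. Between the days it was 7.07% to 17.1% higher and 7.58% to 20.7% lower. Samples with the same number did not deviate together (r of −0.03 to 0.017 for CiADCs-3d and BEFs, 0.008 to 0.145 for CiADCs-6d and BEFs, −0.372 to −0.131 between the days), and the replicate block gave 5 higher and 4 lower genes on both days and 0 higher and 2 lower between them, as without it. Its background was 29.4% higher and 27.4% lower on day 3, 34.3% and 30.7% on day 6, and 11.5% and 10.6% between the days. FABP7 could not be tested with 10 counts required in every sample. Of the family shares, 20 of 30 moved by more than 1 SD when CPM, not divided by gene length, replaced FPKM: FABP5 then held 43% of the FABP sum in BEFs and FABP3 38.1%. With ACSL5 in the sum, an alternative chosen after seeing the data, ACSL4 held 24.7%, 37.5% and 36.5% in the 3 groups. With 3 samples a group, single values could not reach an exact p under 0.1. Low counts limit FABP4 on day 6 and FABP7.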
